A study of Mus musculus with 4 samples.

Results

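The extracellular matrix genes of mouse dorsal skin were examined on 4 arrays, as the 64 genes that comprise every collagen chain named by a single-gene probe set (42 genes) and 22 of 25 listed genes of the dermal matrix, among 17097 genes measured by such probe sets. Fbn1, P4ha1 and Thbs1, which were also listed, had no single-gene probe set in the annotation used and were not analysed here. Skin of 8-week-old male C3H mice, shaved on the back, was treated for 30 days with 1% TCQA, a quinic acid that carries caffeoyl groups at positions 3, 4 and 5 (arrays TCQA 1 and TCQA 2), or with the vehicle, Milli-Q water (arrays Control 1 and Control 2). The tissue was whole skin, so that a lower share of fibroblasts and less RNA per fibroblast cannot be told apart. It is not given how many mice an array represents, and the tests therefore measure the spread between arrays, which may be technical. Every value below is a log2 signal of 1 probe set on 1 array, a log2 fold change is the TCQA mean minus the control mean, and a probe set's level is not compared with that of another.

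The dermis is built by fibroblasts, which secrete collagen chains that fold into triple helices. Fibrillar collagens assemble into the fibers that give skin its strength, type IV collagen forms the sheet of the basement membrane under the epidermis, and the remaining types link, anchor or organize these structures. Small leucine-rich proteoglycans such as decorin bind to the fibrils, matrix glycoproteins connect them to cells, and enzymes hydroxylate, cross-link or degrade them. In mouse skin, the matrix is remodeled with the hair cycle, when the follicle grows down into the dermis and regresses.

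The 4 arrays did not form a pair of like groups, and Control 1 stood apart from the other 3. Probe sets with a value of 8 or more numbered 31 on TCQA 1 and 23 on TCQA 2, against 522 on Control 1 and 26 on Control 2. Of 7 genes that every cell uses, 6 were at least 4-fold lower on each of the other 3 arrays than on Control 1. Actb, the cytoskeletal actin, had 2.94 on TCQA 1 and 2.69 on TCQA 2, against 9.02 on Control 1 and 2.58 on Control 2, and the ribosomal protein gene Rplp0 had 2.50 on TCQA 1 and 2.23 on TCQA 2, against 9.78 on Control 1 and 2.00 on Control 2. Gapdh was not as low, with 6.32 on TCQA 1 and 6.37 on TCQA 2, against 11.02 on Control 1 and 6.65 on Control 2. Hprt had 4.66 on TCQA 1 and 4.72 on TCQA 2, against 6.01 on Control 1 and 4.13 on Control 2. Every difference given without Control 1 thus compares arrays on which genes such as Actb and Rplp0 gave little signal. A small difference of this kind does not show that TCQA and control skin were alike. Whether Control 1 or the other 3 arrays depart from a usual hybridization was not tested. Control 1 held signals of at least 4-fold above each other array for 11 of the 64 matrix genes (17.2%, against 12.0% of all genes), and of at least 4-fold below each other array for 0 of them (0.0585% of all genes). Control 1 was the highest array for 24 matrix genes (33.9% of all genes) and the lowest for 29 (53.6% of all genes). The 8 fibroblast markers checked, 6 of which are among the 64 genes, had a summed level (log2 of the summed linear signals) of 6.17 on TCQA 1, 5.99 on TCQA 2, 10.04 on Control 1 and 6.27 on Control 2. Their median was 2.65 on TCQA 1, 2.54 on TCQA 2, 4.34 on Control 1 and 2.54 on Control 2. Signals of at least 4-fold above each other array were also found on Control 1 for markers of skeletal muscle (7 of 8 genes), keratinocytes (4 of 6) and adipocytes (2 of 3), for 4 of the 8 fibroblast markers and for genes used by every cell (6 of 7). The summed level of the muscle list was 6.08 on TCQA 1, 6.25 on TCQA 2, 13.53 on Control 1 and 5.90 on Control 2, and that of the keratinocyte list was 6.02 on TCQA 1, 5.83 on TCQA 2, 10.89 on Control 1 and 6.05 on Control 2. The part of these cell types in the matrix values was not tested. None of the 5 endothelial and 1 of the 5 macrophage markers stood apart in this way.

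**Figure D1:**
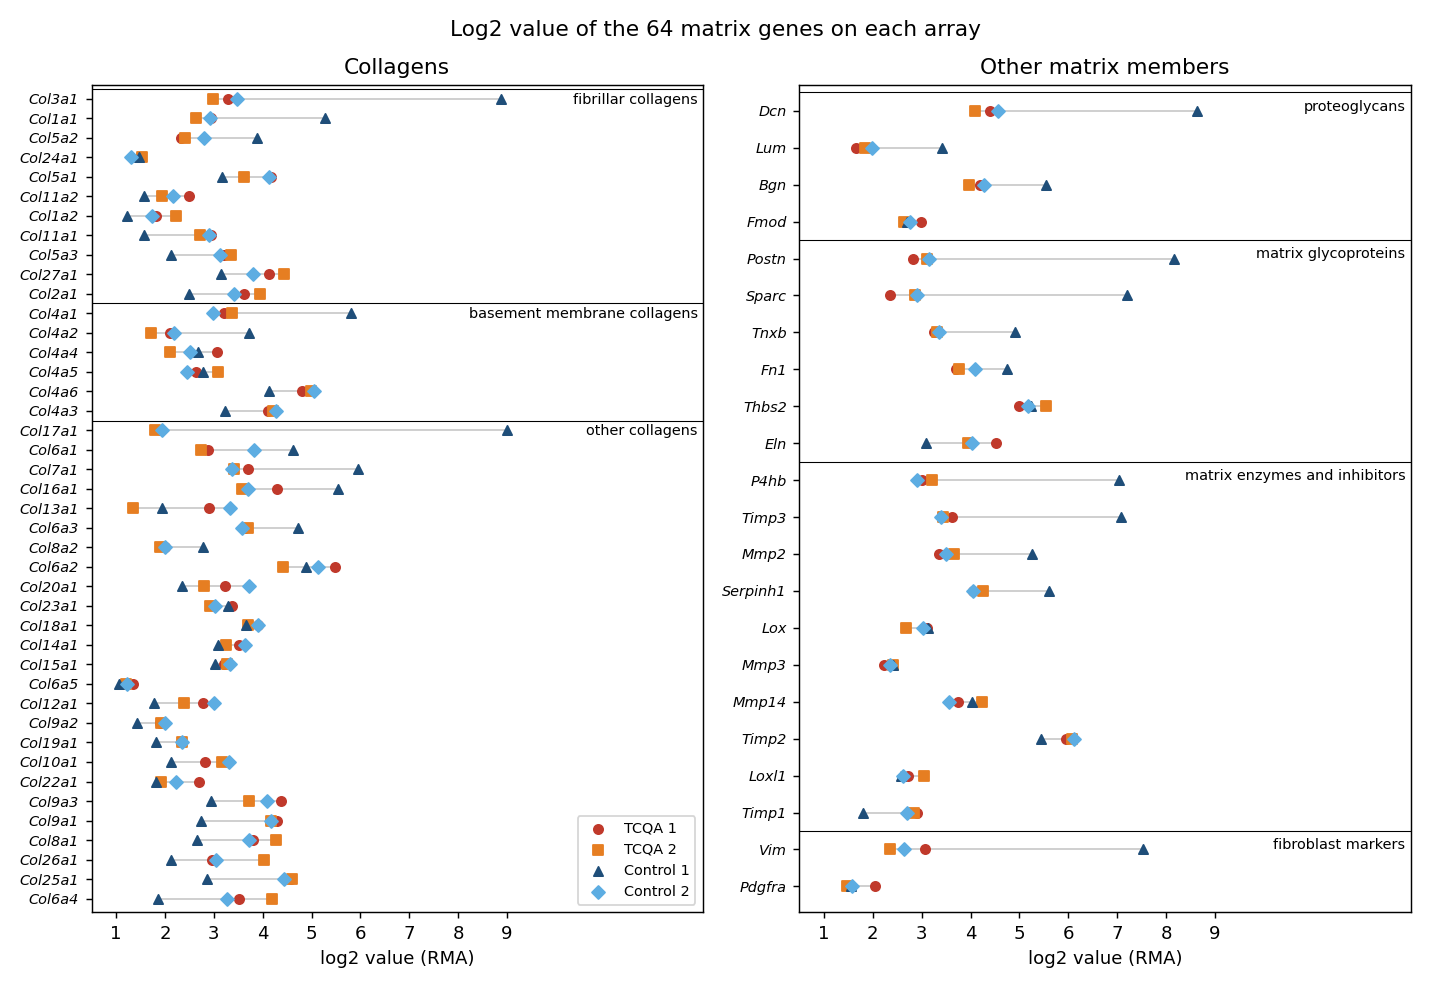
Log2 value (horizontal axis) of each of the 64 matrix genes (rows, grouped by class and ordered by log2 fold change) on TCQA 1, TCQA 2, Control 1 and Control 2, with a grey line over the range. Control 1 lies far to the right for genes such as Col17a1 (9.00) and Col3a1 (8.87), while the other 3 arrays lie close together.

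Col6a1, the alpha 1 chain of type VI collagen that forms beaded filaments around dermal cells, was the 1 matrix gene that met both thresholds. These were a 2-fold change and an unadjusted p of at most 0.05 in limma's moderated test. They are called the thresholds of the study, since the paper states both values. For its arrays, however, the paper calls a gene significant by the 2-fold change, and its unpaired test is not described as moderated. The unmoderated test below, with 0 matrix genes, is therefore nearer to the paper's than limma is. Col6a1 had log2 values of 2.89 on TCQA 1 and 2.73 on TCQA 2, against 4.63 on Control 1 and 3.83 on Control 2. Both TCQA arrays thus lay below both control arrays. The mean was 2.81 ± 0.11 with TCQA and 4.23 ± 0.56 in the control (SD, n = 2 each), a log2 fold change of -1.42 (standard error, SE = 0.42, limma adjusted p = 0.92). Without Control 1, TCQA remained lower than Control 2 by a log2 difference of -1.03. The thresholds of the study were met on the lower side by 1 of 64 matrix genes (0.170% of all genes) and on the higher side by 0 (0.140% of all genes). With limma's trend and robust options and with an unmoderated test, 0 matrix genes met them, and 0 did without TCQA 1 or without TCQA 2.
The other type VI chains did not share the pattern of Col6a1. Col6a2 had 5.48 on TCQA 1 and 4.41 on TCQA 2, against 4.88 on Control 1 and 5.14 on Control 2, a log2 fold change of -0.06. Its second probe set had 4.51 on TCQA 1 and 4.11 on TCQA 2, against 6.37 on Control 1 and 4.31 on Control 2, and its log2 fold change was -1.03 with both controls and -0.00 with Control 2 alone. Col6a3, with a log2 fold change of -0.48, stood 0.10 above Control 2 when Control 1 was left out. Col6a4 had the highest log2 fold change of the 64 genes, at 1.28 (SE = 0.61, limma adjusted p = 0.92). It measured 3.52 on TCQA 1 and 4.19 on TCQA 2, against 1.86 on Control 1 and 3.27 on Control 2. Both TCQA arrays were above both controls, and the difference from Control 2 alone was 0.58. Its other probe set had a log2 fold change of 0.23, with -0.19 without Control 1. Col6a5 varied between 1.05 and 1.35 on the 4 arrays.

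Upstream sequences are shown for Col6a1, the gene that met the thresholds, and for Col3a1, Sparc and Vim, which were taken, after their values were seen, as examples among the genes at least 4-fold above each other array on Control 1. They are the 250 bases before the annotated start in RefSeq, build GRCm38.p6, printed 5′ to 3′ on the strand of the gene: Col6a1 at chr10:76726045-76726294 (minus strand), Col3a1 at chr1:45311288-45311537 (plus strand), Sparc at chr11:55420081-55420330 (minus strand) and Vim at chr2:13574061-13574310 (plus strand). Capitals mark matches on either strand to 4 motifs, which are the TATA box with the letters TATAAA, the promoter element spelled CCAAT, the box bound by Sp1-type factors with the letters GGGCGG, and the site of AP-1 factors with the letters TGANTCA.
Col6a1: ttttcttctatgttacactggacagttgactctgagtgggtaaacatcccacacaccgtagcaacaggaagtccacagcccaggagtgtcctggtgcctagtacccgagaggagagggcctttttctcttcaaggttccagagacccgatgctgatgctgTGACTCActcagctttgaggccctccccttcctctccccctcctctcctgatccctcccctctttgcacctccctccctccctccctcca
Col3a1: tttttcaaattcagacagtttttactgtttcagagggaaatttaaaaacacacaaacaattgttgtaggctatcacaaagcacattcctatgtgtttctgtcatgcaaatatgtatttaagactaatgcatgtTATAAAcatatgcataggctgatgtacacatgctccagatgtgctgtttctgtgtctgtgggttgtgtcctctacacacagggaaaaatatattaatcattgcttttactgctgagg
Sparc: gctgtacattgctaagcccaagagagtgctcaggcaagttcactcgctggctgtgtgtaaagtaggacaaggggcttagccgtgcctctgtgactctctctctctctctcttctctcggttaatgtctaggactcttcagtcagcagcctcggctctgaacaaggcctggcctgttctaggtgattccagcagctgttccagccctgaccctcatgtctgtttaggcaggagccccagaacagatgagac
Vim: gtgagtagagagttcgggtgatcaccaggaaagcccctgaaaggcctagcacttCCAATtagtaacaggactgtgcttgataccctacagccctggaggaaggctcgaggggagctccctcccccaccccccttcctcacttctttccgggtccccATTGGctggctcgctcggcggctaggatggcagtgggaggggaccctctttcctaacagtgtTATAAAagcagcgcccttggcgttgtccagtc
The Col6a1 window held 1 AP-1 match, 90 to 84 bases before the start. The Col3a1 window held 1 TATA match, 117 to 112 bases before the start, and the Vim window held 1 TATA match, 32 to 27 bases before the start, and 2 CCAAT matches. The Sparc window held no match to the 4 motifs. No match overlapped another. Of 32851 windows of this length in the table, 12.4% held the first motif, 33.8% the second, 32.7% the third and 6.75% the fourth. Among the 52 windows of 48 matrix genes, the shares were 17.3%, 36.5%, 53.8% and 5.77% in the same order. A match describes these letters only and was not tied to the array values.

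Among the 11 fibrillar collagens, Col3a1, Col1a1 and Col5a2 had log2 fold changes of -0.98 or lower, which were between -0.14 and -0.43 without Control 1, and the other 8 had positive values of at most 0.83. Col3a1, the chain of type III collagen abundant in young and remodeling dermis, had 3.28 on TCQA 1 and 2.99 on TCQA 2, against 8.87 on Control 1 and 3.47 on Control 2. Both TCQA arrays were below both controls, and Control 2 was nearer to them than to Control 1. The mean was 3.14 ± 0.21 with TCQA and 6.17 ± 3.82 in the control (SD, n = 2 each), so that the log2 fold change came to -3.03 (SE = 1.83, limma adjusted p = 0.92), and to -0.33 without Control 1. The second Col3a1 probe set had a log2 fold change of -0.98, and Control 1 was again its highest array. Col1a1, the alpha 1 chain of type I collagen, had 2.94 on TCQA 1 and 2.63 on TCQA 2, against 5.27 on Control 1 and 2.93 on Control 2. TCQA 1 and Control 2 were level, and the log2 fold change of -1.31 was -0.14 without Control 1. Its partner chain Col1a2, measured by 1 dim probe set, went the other way on Control 1, with 1.81 on TCQA 1 and 2.23 on TCQA 2, against 1.22 on Control 1 and 1.74 on Control 2. Col5a2, which helps to nucleate type I fibrils, had 2.33 on TCQA 1 and 2.40 on TCQA 2, against 3.89 on Control 1 and 2.80 on Control 2, a log2 fold change of -0.98 and of -0.43 without Control 1. The second Col5a2 probe set had 1.81 on TCQA 1 and 2.31 on TCQA 2, against 2.31 on Control 1 and 2.64 on Control 2, so that TCQA 2 and Control 1 were level and Control 2 was the highest. Col27a1, a collagen known from cartilage, had 4.14 on TCQA 1 and 4.44 on TCQA 2, against 3.15 on Control 1 and 3.79 on Control 2, a log2 fold change of 0.82 and of 0.50 without Control 1. The other Col27a1 probe set had -0.13. Col5a1 had 4.17 on TCQA 1 and 3.62 on TCQA 2, against 3.17 on Control 1 and 4.13 on Control 2, so that Control 2 lay between both TCQA arrays. A second Col5a1 probe set had 2.26 on TCQA 1 and 2.25 on TCQA 2, against 2.95 on Control 1 and 2.67 on Control 2. Its log2 fold change was -0.55, and -0.41 without Control 1. The remaining Col5a1 probe set had a log2 fold change of 0.14. The 6 other fibrillar genes had log2 fold changes between 0.12 and 0.83, and between -0.07 and 0.37 without Control 1. The class had 8 positive and 3 negative log2 fold changes, with a median of 0.34 and a mean of -0.11, beside a median of 0.08 over all genes. Without Control 1 the median was 0.05. With the chosen probe sets, both TCQA arrays lay above both controls for 5 of the 11 genes (45.5%, against 16.0% of all genes). These were Col27a1, Col2a1, Col5a3, Col1a2 and Col24a1. Col24a1 was dim, with 1.48 on TCQA 1 and 1.53 on TCQA 2, against 1.47 on Control 1 and 1.31 on Control 2. The second probe sets of Col5a3, with a log2 fold change of -0.01, and of Col27a1 overlapped between the groups. Both TCQA arrays lay below both controls for 2 genes (18.2%, against 13.6% of all genes).

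In the basement membrane class of 6 type IV chains, Col4a1 and Col4a2, which together make the common type IV molecule, were highest on Control 1. The chosen probe sets of Col4a3 and Col4a6 were instead lowest on Control 1. Col4a1 had 3.21 on TCQA 1 and 3.37 on TCQA 2, against 5.82 on Control 1 and 2.97 on Control 2. Its log2 fold change of -1.10 (SE = 1.00, limma adjusted p = 0.92) was 0.32 without Control 1, and both of its probe sets behaved in this way. Col4a2 had 2.10 on TCQA 1 and 1.72 on TCQA 2, against 3.72 on Control 1 and 2.18 on Control 2, a log2 fold change of -1.03 and of -0.26 without Control 1. Col4a3, a chain of specialized basement membranes, had 4.11 on TCQA 1 and 4.21 on TCQA 2, against 3.24 on Control 1 and 4.27 on Control 2. Col4a6 had 4.80 on TCQA 1 and 4.98 on TCQA 2, against 4.14 on Control 1 and 5.04 on Control 2. For both of these genes Control 2 was above both TCQA arrays with the chosen probe set. The second Col4a3 probe set had the same pattern. The second Col4a6 probe set did not, with 3.09 on TCQA 1 and 3.52 on TCQA 2, against 3.18 on Control 1 and 3.03 on Control 2. Col4a4 and Col4a5 had log2 fold changes of -0.00 and 0.24, while a second, dimmer Col4a5 probe set gave -1.17 and was highest on Control 1 (3.99). The median of the class was 0.12, with 3 positive and 3 negative differences, and -0.02 without Control 1. Both TCQA arrays lay above both controls for 0 of the 6 genes (16.0% of all genes) and below them for 1 (13.6% of all genes).

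The 25 other collagens held both the most negative and the most positive log2 fold change of the 64 genes. Col17a1, the transmembrane collagen of hemidesmosomes by which basal keratinocytes hold to the basement membrane, had 1.91 on TCQA 1 and 1.80 on TCQA 2, against 9.00 on Control 1 and 1.95 on Control 2. Its log2 fold change of -3.62 (SE = 2.37, limma adjusted p = 0.92) was -0.09 without Control 1. Col7a1, the collagen of the anchoring fibrils below the same junction, had 3.70 on TCQA 1 and 3.42 on TCQA 2, against 5.96 on Control 1 and 3.37 on Control 2. Col16a1, a fibril-associated collagen, had 4.29 on TCQA 1 and 3.58 on TCQA 2, against 5.54 on Control 1 and 3.70 on Control 2, and its log2 fold change of -0.69 was 0.24 without Control 1. Col25a1, a transmembrane collagen known from neurons, had 4.59 on TCQA 1 and 4.61 on TCQA 2, against 2.85 on Control 1 and 4.45 on Control 2. Both TCQA arrays were above both controls, by a log2 fold change of 0.95, which was 0.15 without Control 1 and -0.26 with its other probe set. Col13a1, another transmembrane collagen, separated the replicates more than the groups. It had 2.91 on TCQA 1 and 1.34 on TCQA 2, against 1.94 on Control 1 and 3.33 on Control 2, and the TCQA mean was below Control 2 by a log2 difference of -1.21. Col6a1 and Col13a1 were the 2 matrix genes at least 2-fold below Control 2 with Control 1 left out (0.351% of all genes), and 0 were at least 2-fold above it (0.140% of all genes). For the 18 genes of this class not named by the rule, the log2 fold change ranged between -1.11 for Col7a1 and 0.91 for Col26a1, and between -0.70 and 0.45 without Control 1. The fibril-associated collagens, which sit on the surface of fibrils, had a median of 0.20 over 9 genes. The median of the class was 0.05, with 15 positive and 10 negative values, and -0.03 without Control 1. Both TCQA arrays lay above both controls for 4 of the 25 genes (16.0% of all genes) and below them for 2 (13.6% of all genes).

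**Figure D2:**
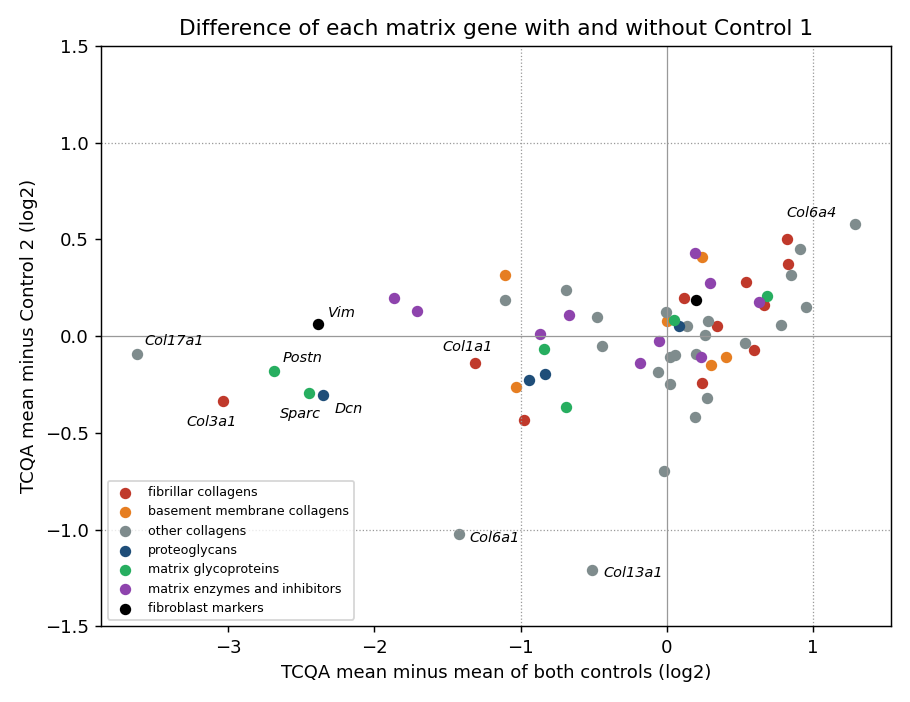
TCQA mean minus the mean of both controls (horizontal axis, log2) against TCQA mean minus Control 2 alone (vertical axis, log2) for the 64 matrix genes, 1 point per gene, coloured by class, with dotted lines at 2-fold. Col3a1 and Col17a1 lie at -3.03 and -3.62 on the horizontal axis and at -0.33 and -0.09 on the vertical axis, while Col6a1 passes 2-fold on both.

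Of the 4 proteoglycans, 3 were lower on both TCQA arrays than on both control arrays (13.6% of all genes). Decorin (Dcn), which coats type I fibrils and binds TGF-β, had 4.40 on TCQA 1 and 4.10 on TCQA 2, against 8.64 on Control 1 and 4.55 on Control 2. The mean was 4.25 ± 0.22 with TCQA and 6.60 ± 2.89 in the control (SD, n = 2 each), and the log2 fold change of -2.35 (SE = 1.40, limma adjusted p = 0.92) was -0.30 without Control 1. Lumican (Lum), which spaces fibrils, had 1.66 on TCQA 1 and 1.85 on TCQA 2, against 3.41 on Control 1 and 1.98 on Control 2. Biglycan (Bgn), a close relative of decorin, had 4.20 on TCQA 1 and 3.96 on TCQA 2, against 5.55 on Control 1 and 4.28 on Control 2. For lumican and biglycan the differences from Control 2 were -0.23 and -0.20. TCQA 2 differed from TCQA 1 by 0.19 for lumican and by -0.23 for biglycan, and by a median of 0.27 in size over the class. The second biglycan probe set had 3.97 on TCQA 1 and 3.09 on TCQA 2, against 4.48 on Control 1 and 4.05 on Control 2. Both TCQA arrays were again below both controls, and the difference from Control 2 was -0.52. Fibromodulin (Fmod) overlapped between the groups, with 2.99 on TCQA 1 and 2.64 on TCQA 2, against 2.70 on Control 1 and 2.76 on Control 2. Over the 4 proteoglycans the median difference was -0.89, and -0.21 without Control 1.

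The 6 measured matrix glycoproteins included the second group of genes with very high Control 1 signals. Periostin (Postn), a matricellular protein of remodeling dermis, had 2.83 on TCQA 1 and 3.10 on TCQA 2, against 8.16 on Control 1 and 3.14 on Control 2. Its log2 fold change was -2.69 (SE = 1.70, limma adjusted p = 0.92), and -0.18 without Control 1. Sparc, a collagen-binding protein that fibroblasts secrete, had 2.35 on TCQA 1 and 2.87 on TCQA 2, against 7.21 on Control 1 and 2.90 on Control 2, a log2 fold change of -2.45 and of -0.29 without Control 1. TCQA 2 and Control 2 were almost level for Sparc, and its second probe set gave -2.28 and -0.16. Tenascin-X (Tnxb), which spaces collagen fibrils in skin, had 3.26 on TCQA 1 and 3.31 on TCQA 2, against 4.90 on Control 1 and 3.35 on Control 2. Fibronectin (Fn1), the cell-adhesive glycoprotein, had 3.70 on TCQA 1 and 3.76 on TCQA 2, against 4.74 on Control 1 and 4.09 on Control 2, a log2 fold change of -0.69 and of -0.37 without Control 1. In these 4 genes both TCQA arrays lay below both controls (13.6% of all genes), although TCQA 2 and Control 2 were almost level for Postn and Tnxb. Thrombospondin 2 (Thbs2), a matricellular regulator of fibril assembly, did not separate the groups with its chosen probe set, at 4.98 on TCQA 1 and 5.53 on TCQA 2, against 5.25 on Control 1 and 5.18 on Control 2. The second Thbs2 probe set had 2.50 on TCQA 1 and 2.85 on TCQA 2, against 3.48 on Control 1 and 2.99 on Control 2, with both TCQA arrays below both controls, a log2 fold change of -0.56 and of -0.32 without Control 1. Elastin (Eln), the core of the elastic fibers, had a log2 fold change of 0.68, and of 0.21 without Control 1. The median of the class was -0.77, and -0.12 without Control 1.

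Matrix enzymes and their inhibitors formed a class of 10 measured genes with a median log2 fold change of -0.12, which was 0.12 without Control 1. P4hb, the protein disulfide isomerase that is a subunit of the collagen prolyl hydroxylase, had 3.01 on TCQA 1 and 3.21 on TCQA 2, against 7.04 on Control 1 and 2.91 on Control 2. Without Control 1 its log2 fold change of -1.87 became 0.20. Serpinh1, the collagen chaperone HSP47, had 4.05 on TCQA 1 and 4.26 on TCQA 2, against 5.60 on Control 1 and 4.05 on Control 2, and a second probe set gave -1.62 in place of -0.67. Mmp2, the gelatinase that degrades denatured collagen, had 3.36 on TCQA 1 and 3.67 on TCQA 2, against 5.26 on Control 1 and 3.50 on Control 2. Mmp2 is among the genes that the study tabulated from these arrays, as lower with TCQA by more than 2-fold. Here its difference was smaller than 2-fold, with an unadjusted p of 0.26 in limma's moderated test. Its log2 fold change was -0.87 (SE = 0.68, limma adjusted p = 0.92), and 0.01 without Control 1, where Control 2 lay between both TCQA arrays. Timp2 and Timp3, inhibitors of matrix metalloproteinases, differed between their own probe sets. Timp2 had 5.95 on TCQA 1 and 6.08 on TCQA 2, against 5.44 on Control 1 and 6.12 on Control 2, for the chosen one of 5 probe sets, a log2 fold change of 0.24. Another Timp2 probe set had 2.97 on TCQA 1 and 3.22 on TCQA 2, against 7.01 on Control 1 and 3.11 on Control 2, a log2 fold change of -1.97. Timp3 had 3.63 on TCQA 1 and 3.43 on TCQA 2, against 7.07 on Control 1 and 3.40 on Control 2, a log2 fold change of -1.71, and its other 3 probe sets gave -1.84, -0.51 and 0.36. Loxl1 and Timp1, at 0.30 and 0.63, were higher on both TCQA arrays than on both controls (16.0% of all genes), by 0.27 and 0.18 from Control 2. With the chosen probe sets, 0 genes of this class were lower on both TCQA arrays than on both controls (13.6% of all genes). Some other probe sets of Serpinh1, Timp2 and Timp3 were lower on both, whereas the other Lox probe sets were higher on both. The second Serpinh1 probe set had 1.52 on TCQA 1 and 1.89 on TCQA 2, against 4.54 on Control 1 and 2.10 on Control 2. Its difference from Control 2 was -0.40. The 5 genes not named by the rule, which include the cross-linking enzyme Lox, the stromelysin Mmp3 and the membrane protease Mmp14, had log2 fold changes between -0.18 and 0.63.

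**Figure D3:**
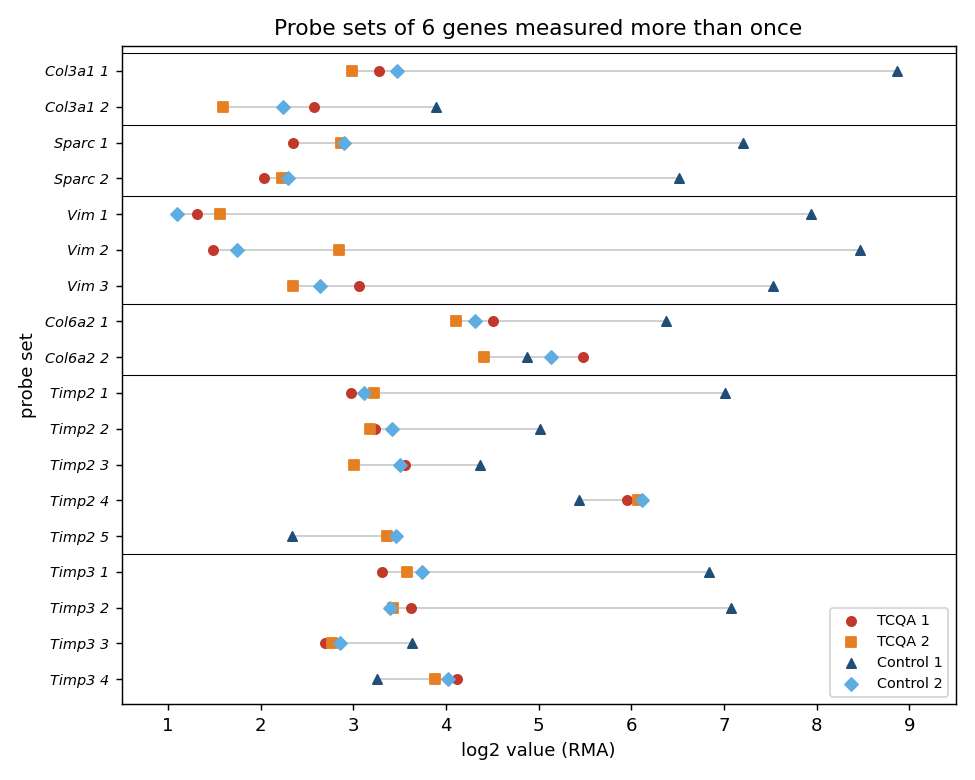
Log2 value (horizontal axis) of every probe set of 6 genes on TCQA 1, TCQA 2, Control 1 and Control 2, 1 row per probe set, with a grey line over the range. All 3 Vim probe sets have Control 1 highest, between 7.53 and 8.47, while Timp2 has it highest in 3 probe sets and lowest in the other 2.

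Of the 2 fibroblast genes added to the matrix list, vimentin and Pdgfra gave different patterns. Vim, the intermediate filament protein of mesenchymal cells, had 3.06 on TCQA 1 and 2.34 on TCQA 2, against 7.53 on Control 1 and 2.64 on Control 2. Its log2 fold change was -2.38 (SE = 1.68, limma adjusted p = 0.92), and 0.06 without Control 1. The other 2 probe sets gave -2.94 and -3.08, and 0.43 and 0.33 without Control 1. Pdgfra, the receptor that marks dermal fibroblasts, had 2.05 on TCQA 1 and 1.46 on TCQA 2, against 1.55 on Control 1 and 1.57 on Control 2, so that TCQA 1 was the highest and the other 3 arrays lay close together. Its 1 probe set was dim, with each value below the median of all probe sets on that array. These medians were 2.54 on TCQA 1, 2.49 on TCQA 2, 2.30 on Control 1 and 2.55 on Control 2.

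Over the 64 matrix genes, 34 had a positive log2 fold change (53.1%, against 56.2% of all genes), and the median was 0.04. Differences of at least 2-fold were found for 13 genes on the lower side (14.5% of all genes) and 1 on the higher side (1.19% of all genes). After a further quantile normalization there were 7 on the lower and 6 on the higher side. Of the 13 genes, 11 were those at least 4-fold above each other array on Control 1 (Col17a1, Col3a1, Postn, Vim, Sparc, Dcn, P4hb, Timp3, Col4a1, Col1a1 and Col7a1), and Col6a1 and Col4a2 were the others. Both TCQA arrays lay above both controls for 11 matrix genes (16.0% of all genes) and below them for 12 (13.6% of all genes), shares of 17.2% and 18.8%. Col6a1 was the only one of these genes whose TCQA mean was also at least 2-fold from Control 2. None of the matrix genes passed an adjusted p of 0.05 in limma, as none of the 45037 probe sets did (0%), although 141 probe sets had an unadjusted p under 0.05. With an unmoderated test 0 probe sets passed after adjustment and 754 had an unadjusted p under 0.05. The adjusted p of the matrix genes lay between 0.92 and 1.00. Without Control 2, 10538 probe sets passed (23.4%), and the thresholds of the study were met by 34 matrix genes (53.1%, against 36.1% of all genes).
Across the 64 genes, the correlation of the log2 values was 0.953 between TCQA 1 and Control 2, 0.898 between TCQA 1 and TCQA 2 and 0.892 between TCQA 2 and Control 2. Control 1 correlated at 0.282 with TCQA 1, at 0.269 with TCQA 2 and at 0.328 with Control 2. These values describe arrays that share probe sets, and genes are not independent replicates. The median absolute difference over the 64 genes was 0.30 between TCQA 1 and TCQA 2 and 0.99 between Control 1 and Control 2, and the TCQA mean differed from Control 2 by a median of 0.18. Of the 32 matrix genes with several probe sets, 13 had a positive log2 fold change with each probe set, 8 a negative one with each, and 11 had both signs.

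**Figure D4:**
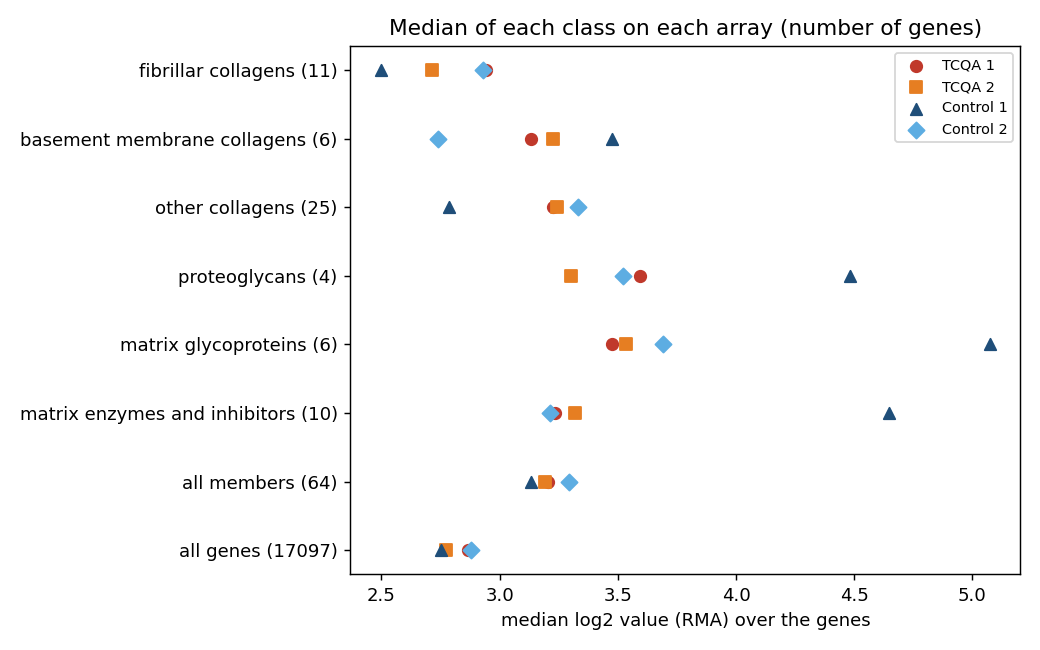
Median log2 value (horizontal axis) of 6 matrix gene classes, of the 64 matrix genes and of all genes on TCQA 1, TCQA 2, Control 1 and Control 2, with the number of genes in brackets. On Control 1 the glycoproteins (5.08), enzymes (4.65), proteoglycans (4.48) and basement membrane collagens (3.48) are above the other arrays, and the fibrillar (2.50) and other collagens (2.78) are below them.

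The medians of the classes thus stood on different sides of the other arrays on Control 1. The median of the glycoproteins was 3.48 on TCQA 1 and 3.53 on TCQA 2, against 5.08 on Control 1 and 3.69 on Control 2. For the enzymes and inhibitors it was 3.23 on TCQA 1 and 3.32 on TCQA 2, against 4.65 on Control 1 and 3.21 on Control 2. For the fibrillar collagens it was 2.94 on TCQA 1 and 2.71 on TCQA 2, against 2.50 on Control 1 and 2.93 on Control 2. Over all genes the median was 2.87 on TCQA 1 and 2.77 on TCQA 2, against 2.75 on Control 1 and 2.88 on Control 2. Control 1 was the lowest array for 7 of the 11 fibrillar collagens (63.6%, against 53.6% of all genes). It was the highest for 3 (27.3%, against 33.9% of all genes), which were Col3a1, Col1a1 and Col5a2. The difference between classes was not tested.

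Beyond these genes, 61 further genes were measured, and listed genes with no single-gene probe set were left out. The 61 were genes of the matrix, cell markers such as Thy1 and S100a4, and genes of TGF-β signaling, which drives collagen synthesis in fibroblasts. Of the 61 genes, 24 were higher and 37 lower in the TCQA mean. Their median difference was -0.13, and -0.08 without Control 1. None passed an adjusted p of 0.05, 11 were at least 2-fold lower (18.0%, against 14.5% of all genes), and 0 were at least 2-fold higher (1.19% of all genes). Tgfbi, a TGF-β-induced adhesion protein, had 1.67 on TCQA 1 and 2.37 on TCQA 2, against 8.12 on Control 1 and 2.37 on Control 2. The fibulin Efemp1 and the skin matrix protein Ecm1 followed it in size, at -1.92 and -1.90, with 0.04 and 0.06 without Control 1. The largest differences from Control 2 were -0.88 for versican (Vcan), 0.80 for Smad4, the shared transducer of TGF-β signals, and 0.71 for the elastic fiber glycoprotein Emilin1. Emilin1 had 2.16 on TCQA 1 and 3.09 on TCQA 2, against 1.98 on Control 1 and 1.92 on Control 2, with the controls level. Smad4 was far apart between the TCQA arrays, with 2.86 on TCQA 1 and 4.41 on TCQA 2, against 7.15 on Control 1 and 2.84 on Control 2.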

How the data were processed

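RNA of treated dorsal skin was amplified, labeled and hybridized to 4 Affymetrix mouse genome arrays of the strip format. How the arrays were placed on strips is not given in the sources used here. RMA, Transcriptome Analysis Console and Affymetrix Expression Console are the tools in the submitters' processing notes. Values deposited by the authors are on the log2 scale, made with RMA, which corrects background, normalizes and summarises the probes of a set. Whether the 4 arrays were normalized together is not given in the sources used here. Log2 signals carry no read depth, and precision is limited by having only 4 arrays.

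Of 45141 probe sets, the 104 Affymetrix controls were left out. Genes were named through the platform annotation (28898 probe sets with 1 gene, 551 with several, 15588 not listed). All symbols of the 64 matrix genes were found in the RefSeq table of GRCm38.p6. The probe set with the highest mean over the 4 arrays represented its gene. The TCQA and control arrays were set against each other by the moderated, two-sided test of limma 3.58.1 (R 4.3.3) with 2 residual degrees of freedom. P-values were adjusted by Benjamini-Hochberg over 45037 probe sets. The test was also run on simulated arrays drawn from the mean and spread of TCQA 1, TCQA 2 and Control 2. The simulated arrays lacked the spread of Control 1, so that run does not show how the test behaves on the measured arrays. The smallest p of an exact permutation of the 4 measured arrays is 0.333. Medians and counts of a class carry no test.

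Given with the value on every array were, of each class, the 3 genes with the highest mean and the 3 with the largest difference, any gene at least 2-fold different whose groups did not overlap, and any gene at least 2-fold from Control 2. Col1a2, Col7a1 and some second probe sets were added after their values were seen. Of the 61 further genes, the 3 largest differences with and without Control 1 were named. Members, lists and rules were chosen with earlier results of these data known. The alternatives were a further quantile normalization, median centring, a filter on dim probe sets, trend and robust options, the unmoderated form of the test, a replicate block, other choices of probe set and leaving out each array.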

Additional observations from a re-analysis of the deposited data

How the results depend on the processing

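Over all probe sets, the count at an adjusted p under 0.05 was 0 under every alternative run except leaving out arrays, where it ranged between 0 and 10538, the highest without Control 2. Matrix genes at the thresholds of the study numbered 1 in the comparison as reported, 0 with the trend and robust options, 0 with the unmoderated test, and between 0 and 34 when 1 array was left out; the cause was not tested. With 1 array left out, the array left alone in its group was taken to have the spread of the other group. With the replicate block the count over all probe sets was 0 and that of matrix genes was 1. The deviations of arrays of the same number correlated at -0.12, and with the numbers crossed, an alternative chosen after seeing the data, the counts were also 0 and 1.

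Leaving out arrays gave medians between -0.093 and 0.12 for the 64 genes, 0.052 and 0.72 for fibrillar collagens, -0.04 and 0.12 for basement membrane collagens, -0.08 and 0.30 for other collagens, -1.56 and -0.21 for proteoglycans, -1.32 and -0.12 for glycoproteins, and -0.18 and 0.12 for enzymes and inhibitors. Centring moved the median of the 64 genes to -0.052. Signs turned after quantile normalization for Col16a1 (0.025), Col6a2 (0.58) and Serpinh1 (0.065), after centring for Fmod (-0.0066) and Thbs2 (-0.040), with the mean of all probe sets for Col5a1 (-0.059), Thbs2 (-0.26) and Timp2 (-0.58), and with the probe set chosen without Control 1 for Timp3 (0.36). Of the 32 genes given by the rule, 11 turned sign without Control 1. Col6a1 had a log2 fold change of -1.03 without Control 1 and of -1.82 without Control 2. When 1 array was left out, the log2 fold change ranged between -1.30 and 0.27 for Col13a1, -1.61 and 0.24 for Col16a1, -2.53 and 0.32 for Col4a1, -0.11 and 0.92 for Col4a3, -0.15 and 0.76 for Col4a6, -0.24 and 0.72 for Col5a1, -0.59 and 0.47 for Col6a2, -0.093 and 0.26 for Fmod, -1.75 and 0.011 for Mmp2, -3.93 and 0.20 for P4hb, -0.094 and 0.49 for Pdgfra, -1.44 and 0.11 for Serpinh1, -0.23 and 0.32 for Thbs2, -0.11 and 0.58 for Timp2, -3.54 and 0.13 for Timp3, and -4.82 and 0.061 for Vim.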

Other observations

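Between the TCQA arrays, Col13a1 differed most among the 64 genes, with TCQA 2 below TCQA 1 by a log2 difference of -1.57. Col6a2 (-1.07) and Col4a4 (-0.95) were also lower on TCQA 2, and Col26a1 was higher there by 1.07. Among other cell types, the markers of the vessel wall were not alike. Acta2, an actin of smooth muscle and of contractile fibroblasts, had 3.43 on TCQA 1 and 3.05 on TCQA 2, against 8.05 on Control 1 and 3.51 on Control 2, whereas Myh11, the smooth muscle myosin, had 3.42 on TCQA 1 and 3.02 on TCQA 2, against 2.29 on Control 1 and 3.35 on Control 2. Lyz2, the lysozyme of macrophages and other myeloid cells, was highest on Control 1 at 5.56, while Csf1r, the macrophage growth factor receptor, had 3.50 on TCQA 1 and 2.77 on TCQA 2, against 2.52 on Control 1 and 3.29 on Control 2.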
